A study of Mus musculus with 4 samples.

Results

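The RGS genes encode regulators of G protein signalling, and 8 of them (Rgs1, Rgs2, Rgs3, Rgs10, Rgs14, Rgs16, Rgs18 and Rgs19) were followed through a table of 27179 genes in group 2 innate lymphoid cells (ILC2s) sorted from mouse colon. The 8 are part of the 21 numbered RGS genes in the table and were chosen with earlier results of these data known. All 8 were found by NCBI gene number. ILC2s are tissue lymphocytes without antigen receptors that release type 2 cytokines. The cells came from C57BL/6J mice on a high-fiber diet (2 libraries) or on a control diet (2 libraries), with 1 mouse behind each library. The labels name no transgene or agent, and the sources used here do not give age, sex, the kind of fiber, the time on the diet or the gates of the sort. Libraries held 29263068 and 20750263 counts on the high-fiber diet and 30406730 and 20253987 counts on the control diet. High-fiber library 2 stood apart from the others on the first principal component of log2(CPM + 1), which carried 47.0% of the variance (score 70.4, against -5.95 for high-fiber library 1 and -37.0 and -27.4 for the control libraries), so the fold changes of the RGS genes followed here are also given without it. All 12 ILC2 markers listed were present at a mean of 10 CPM (counts scaled to library size by TMM) or more, among them Gata3, Il1rl1 and Il5. Il13 was the lowest of the 12, at 13.2 CPM. Ptgdr2, listed here with the G protein coupled receptors of ILC2s, was at 0 counts in all 4 libraries.

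G protein coupled receptors act by loading GTP onto a G alpha subunit, which then parts from its beta-gamma pair, and both parts signal until the GTP is hydrolysed. RGS proteins bind the active alpha subunit and speed that hydrolysis, so they shorten the response to chemokines, lipids and neurotransmitters. In lymphocytes they are best known for limiting migration towards chemokines and for being switched on by cell activation. By sequence the family falls into the R4, R12, RZ and R7 subfamilies. R4 proteins are mostly little more than the RGS domain, R12 proteins include large scaffolds, RZ proteins carry a cysteine string that is lipid-modified, and R7 proteins need the G beta subunit encoded by Gnb5.

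Of the RGS genes that colonic ILC2s expressed, 2 made up most of the RGS signal. Of the 20 RGS genes in the 4 subfamilies, 8 had 0 counts in every library, 10 reached a mean of 1 CPM and 8 reached a mean of 10 CPM. Over the whole table, 11754 of 27179 genes had 0 counts in every library. Rgs2 and Rgs1 together held 91.8% and 92.7% of all RGS counts in high-fiber libraries 1 and 2, and 94.4% and 93.2% in control libraries 1 and 2. The 95% Wilson intervals were 91.7% to 91.9% and 92.5% to 92.8% on the high-fiber diet and 94.3% to 94.5% and 93.1% to 93.3% on the control diet, and they cover counting error only. RGS genes in sum took 0.52% and 0.62% of all counts in the high-fiber libraries and 0.637% and 0.641% in the control libraries. The summed RGS level was 5269 and 6317 CPM on the high-fiber diet, against 6410 and 6187 CPM on the control diet, so the groups overlapped. On the log2 scale the sums differed by -0.13, high-fiber minus control (two-sided exact permutation p = 0.667, n = 2 each, where 2 mice against 2 cannot go below 0.333).

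**Figure D1:**
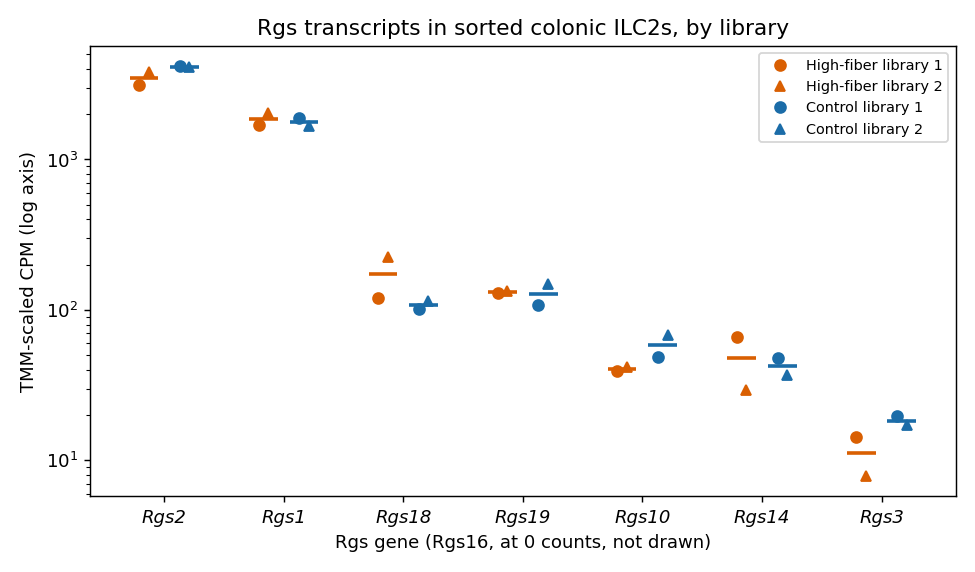
TMM-scaled CPM (log axis) of the 7 detected among the 8 RGS genes followed here, in each library, with high-fiber libraries left of control libraries, circles for library 1, triangles for library 2 and a line at the mean of 2. Rgs2 and Rgs1 lie between 1669 and 4157 CPM in every library, and the other 5 genes lie at 225 CPM or less.

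Levels of different genes were compared per length, as CPM divided by the exon length in kilobases (RPKM). Rgs2 averaged 1260 RPKM over the 4 libraries and ranked at position 41 among 10983 tested genes with a known exon length. Rgs1 averaged 474 RPKM and ranked at position 128. Rgs18 (69.2 RPKM), Rgs19 (60.6 RPKM) and Rgs10 (56.2 RPKM) followed at positions 1197, 1383 and 1489, Rgs14 (19.2 RPKM) at position 3437 and Rgs3 (1.91 RPKM) at position 8312. Rgs2 stood above Rgs1, and Rgs1 above Rgs18, in 4 of 4 libraries without overlap of their ranges. Rgs18, Rgs19 and Rgs10 could not be put in order. The level of Rgs18 over Rgs19 ranged from 0.82 to 1.77 between libraries, and that of Rgs19 over Rgs10 from 0.895 to 1.34. Rgs10 exceeded Rgs14 by 1.59 to 4.96 times and Rgs14 exceeded Rgs3 by 7.05 to 15.1 times. The lengths count exons of transcripts paired with RefSeq records. With all annotated exons instead, a choice added after seeing the data, Rgs1 was at 262 RPKM and Rgs10 at 28.9 RPKM, Rgs19 lay above Rgs10 by 1.67 to 2.5 times, and the order of the means was the same.

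**Figure D2:**
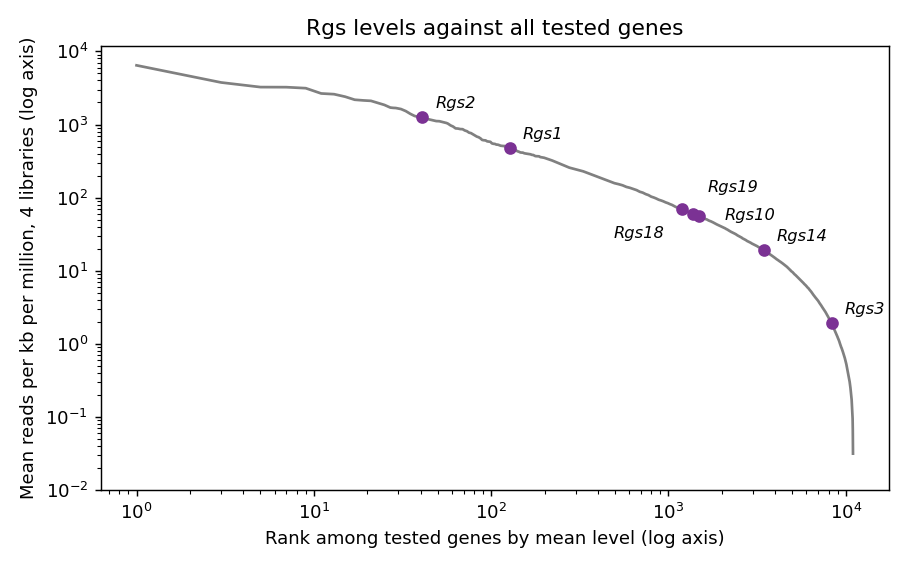
Mean RPKM over 4 libraries (log axis) against rank (log axis) for tested genes with a known exon length (grey line), with the 7 detected among the 8 RGS genes followed here as points. Rgs2 (position 41) and Rgs1 (position 128) sit near the top of the curve and Rgs3 (position 8312) near its lower end.

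Rgs16, an R4 gene that activated T cells induce and whose protein acts on Gi and Gq class alpha subunits, was at 0 counts in all 4 libraries. A count of 0 allows up to 3 counts per library, or 0.104 and 0.147 CPM in the high-fiber libraries and 0.0993 and 0.143 CPM in the control libraries. Rgs16 (NCBI gene 19734) lies on chromosome 1 of the GRCm38 assembly from 153740353 to 153745468, and no other gene of the RefSeq annotation overlaps it. Its neighbour Rgs8 was also at 0 counts. The start regions of Rgs2, the most abundant member, and of Rgs16, the undetected one, are shown because they belong to the ends of the range. Both are 220 bases from RefSeq's GRCm38.p6 annotation, running from 250 to 31 bases before the annotated start. The Rgs2 window is chr1:144004180-144004399 on the minus strand and the Rgs16 window chr1:153740103-153740322 on the plus strand. Capitals mark GC boxes (GGGCGG), the core of the cAMP response element (TGACG) and EGR elements (GCGNGGGCG), each on either strand.
Rgs2: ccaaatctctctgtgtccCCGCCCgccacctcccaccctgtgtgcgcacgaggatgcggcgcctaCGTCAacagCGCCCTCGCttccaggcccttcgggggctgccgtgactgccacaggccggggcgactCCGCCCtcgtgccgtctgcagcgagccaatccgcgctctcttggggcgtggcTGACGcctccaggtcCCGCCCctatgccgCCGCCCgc
Rgs16: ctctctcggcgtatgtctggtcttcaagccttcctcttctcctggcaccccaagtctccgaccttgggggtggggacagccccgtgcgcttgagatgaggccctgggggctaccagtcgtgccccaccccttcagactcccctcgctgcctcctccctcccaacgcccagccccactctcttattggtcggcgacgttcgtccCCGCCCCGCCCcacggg

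Both windows were rich in G and C, at 72.3% for Rgs2 and 67.3% for Rgs16, where the median over 27025 promoters was 51.8%. CpG pairs numbered 25 in Rgs2 and 15 in Rgs16, against a median of 5 over all promoters. The Rgs2 window held 4 GC boxes, 2 cores of the cAMP response element, at 185 and 67 bases before the start, and 1 EGR element 176 bases before it. The Rgs16 window held 2 overlapping GC boxes and none of the other elements searched. Of all promoters, 28.5% held a GC box, 14.7% a TGACG core and 3.69% an EGR element in the same window. Neither window held a full cAMP response element (TGACGTCA, in 1.16% of promoters), an AP-1 element (TGANTCA, in 6.24%), a TATA box (TATAAA, in 10.3%) or an E box (CANNTG, in 62.0%). These are matches of letters and do not show that a factor binds. RefSeq windows were found for 5 of the 8 genes, and Rgs1, Rgs14 and Rgs18 were not among them.

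Rgs2, Rgs1 and Rgs18 share a stretch of chromosome 1. The RGS genes Rgs2, Rgs13, Rgs1, Rgs21 and Rgs18 follow each other over 776 kb, from 143999338 to 144775427, all on the minus strand and with no other gene of the deposited table between them. The expressed and the silent genes alternated along it. Rgs2, Rgs1 and Rgs18 were expressed, while Rgs13, which lies between Rgs2 and Rgs1, had 1 count in all libraries together and Rgs21, which lies between Rgs1 and Rgs18, had 0. The pairs of Rgs8 with Rgs16 and of Rgs5 with Rgs4, elsewhere on the same chromosome, were at 0 counts.

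**Figure D3:**
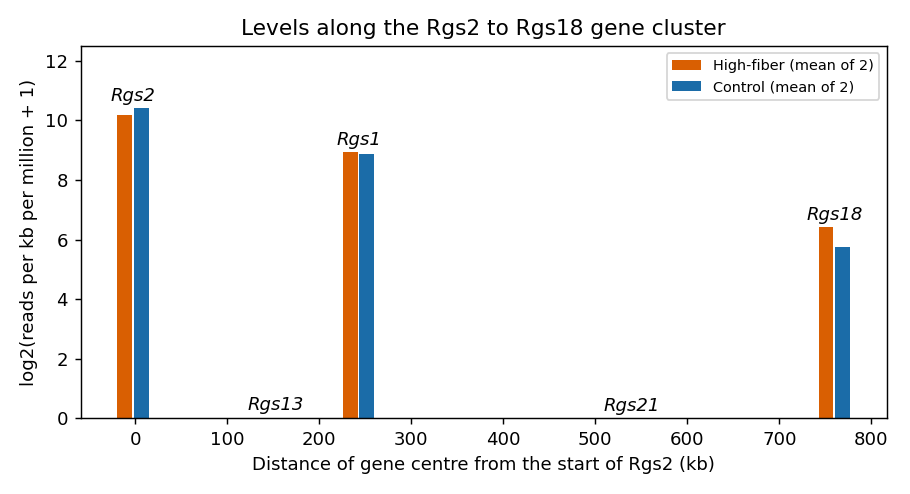
Level on the log2(RPKM + 1) scale of the 5 RGS genes along their shared stretch of chromosome 1, against the distance of each gene's centre from the start of Rgs2 in kb, with bars for the mean of 2 high-fiber libraries (left) and of 2 control libraries (right). Rgs2, Rgs1 and Rgs18 have bars in both diets, and Rgs13 and Rgs21 have none that can be seen.

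No RGS gene differed by diet past the threshold. Of the 7 tested among the 8 followed here, 0 rose and 0 fell by edgeR's quasi-likelihood test at an adjusted p under 0.05, where 0.0338% of all 11841 tested genes were called (4 genes, all higher on the high-fiber diet). At an unadjusted p under 0.05 there were also 0 of 7, where 8.8% of tested genes passed. DESeq2 called 0 of the 7, against 1.91% of the genes it adjusted. By limma-voom 0 of the 7 and 0 of all 11841 tested genes were called, so that count says nothing particular about RGS genes. Rgs16 had no count and did not enter the test. The median log2 fold change of the 7, high-fiber over control, was 0.047, with a range of -0.68 to 0.67, and the median of all tested genes was -0.016. The groups did not overlap for 4 of the 7 (1 higher, 3 lower), which is 57.1% where 38.2% of tested genes had groups apart (18.5% higher, 19.6% lower). Without high-fiber library 2, log2 fold changes were -0.39 for Rgs2, -0.085 for Rgs1, 0.16 for Rgs18 and 0.015 for Rgs19. They were -0.55 for Rgs10, 0.63 for Rgs14 and -0.37 for Rgs3. Since all values come from sorted cells in bulk, fewer cells of a type and less RNA per cell cannot be told apart.

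**Figure D4:**
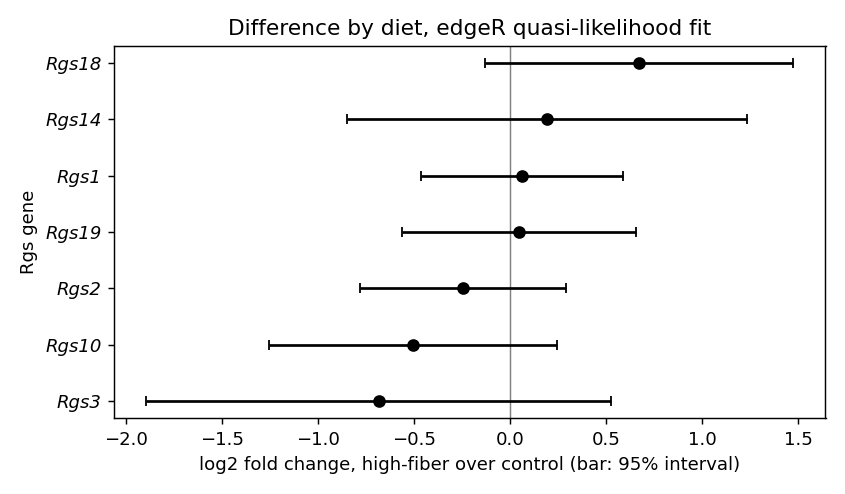
Log2 fold change, high-fiber over control, of the 7 tested among the 8 RGS genes followed here, with its 95% interval from edgeR's quasi-likelihood fit. All 7 intervals include 0, and they are narrowest for Rgs1, Rgs2 and Rgs19.

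Among the R4 genes, Rgs2 (NCBI gene 19735, chromosome 1 from 143999338 to 144004149) encodes a small protein that prefers Gq class alpha subunits. High-fiber libraries 1 and 2 had 3151 and 3818 CPM, against 4157 and 4098 CPM in control libraries 1 and 2. Both high-fiber libraries lay below both control libraries. This came to a log2 fold change of -0.24 ± 0.22 (SE), with a 95% interval of -0.78 to 0.29 and an adjusted p of 0.832 by edgeR.

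Rgs1 (NCBI gene 50778, chromosome 1 from 144244669 to 144249104) encodes a brake on chemokine receptors that signal through Gi. It was at 1687 and 2036 CPM in the high-fiber libraries and 1897 and 1669 CPM in the control libraries. The groups overlapped, with high-fiber library 2 the highest of the 4. The log2 fold change was 0.062 ± 0.22 (SE), with an interval of -0.46 to 0.59 (adjusted p = 0.966, edgeR). The sign turned without control library 2 (-0.029), as it did without high-fiber library 2. T cells also express this gene. The summed level of 11 T cell markers was 909 and 1010 CPM in the high-fiber libraries, against 922 and 1060 CPM in the control libraries. Cd8a, Cd8b1 and Cd5 were at 0 counts in all 4, and 3 of the 11 reached a mean of 10 CPM. Trbc1, the most abundant, was at 460 and 525 CPM on the high-fiber diet, against 580 and 638 CPM on the control diet. The summed level of 10 B and plasma cell markers, given below with Rgs18, was highest in high-fiber library 2 (1770 CPM), as Rgs1 was. Ighm, the most abundant of those 10, was highest in control library 2 (615 CPM). The part of either marker list in the level of Rgs1 was not tested.

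The balance of the 2 abundant genes was steady within the high-fiber group. Per length, Rgs2 stood 2.38 and 2.38 times above Rgs1 in the high-fiber libraries, against 2.79 and 3.12 times in the control libraries. By counts the ratio was 1.87 and 1.88, against 2.19 and 2.45. With all annotated exons it ranged from 3.58 to 4.7 over the libraries, so its size depends on the length used. The ratio does not depend on how libraries are scaled, and both high-fiber libraries lay below both control libraries. The log2 ratio of counts averaged 0.904 ± 0.0039 on the high-fiber diet and 1.21 ± 0.12 on the control diet (SD, n = 2 each), a difference of -0.31. The two-sided exact permutation p was 0.333, the smallest that 2 mice against 2 allow, and the ratio was chosen after the values were seen.

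Rgs18 (NCBI gene 64214, chromosome 1 from 144752683 to 144775427) encodes an R4 protein best known from platelets and other blood cells. It was at 121 and 225 CPM in the high-fiber libraries, against 101 and 115 CPM in the control libraries. High-fiber library 2 alone was well above the others. The log2 fold change was 0.67 ± 0.33 (SE), with an interval of -0.13 to 1.47, the smallest unadjusted p among the 7 (0.088) and an adjusted p of 0.654 by edgeR. Without high-fiber library 1 it was 1.08, and without high-fiber library 2 it was the 0.16 given above. The summed level of 10 B and plasma cell markers was 761 and 1770 CPM in the high-fiber libraries and 638 and 655 CPM in the control libraries, with Pax5 at 0 in all 4. The sum was highest in high-fiber library 2, while Ighm, the most abundant of them, was at 418 and 548 CPM on the high-fiber diet, against 482 and 615 CPM on the control diet. That of 11 macrophage and dendritic cell markers was 365 and 387 CPM on the high-fiber diet, against 159 and 314 CPM on the control diet, with Itgax at 0 and Apoe the most abundant. Their part in the level of Rgs18 was not tested. Of 9 platelet and megakaryocyte markers, Gp1bb, Gp9, Treml1 and Clec1b were at 0 counts in every library. The list summed to 138 and 150 CPM on the high-fiber diet, against 135 and 164 CPM on the control diet, nearly all of it Itgb3.

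Rgs3 (NCBI gene 50780, chromosome 4 from 62559835 to 62703019) encodes a protein with long and short forms that acts on Gi and Gq class subunits. It was at 14.4 and 7.90 CPM in the high-fiber libraries and 19.6 and 17.1 CPM in the control libraries. Both high-fiber libraries were lower, high-fiber library 2 most so. High-fiber over control, the log2 fold change was -0.68 ± 0.50 (SE), with an interval of -1.89 to 0.52 (adjusted p = 0.786, edgeR). The noncoding gene Gm52741 overlaps its span, and whether counting used strand is not given in the sources used here.

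Of the R12 members, Rgs10 (NCBI gene 67865, chromosome 7 from 128373621 to 128419506) encodes a small regulator of Gi class subunits known from macrophages and microglia. It was at 39.5 and 41.9 CPM on the high-fiber diet, against 48.4 and 67.9 CPM on the control diet. Both high-fiber libraries lay below both control libraries. The log2 fold change was -0.51 ± 0.31 (SE), with an interval of -1.26 to 0.24 (adjusted p = 0.732, edgeR). The macrophage and dendritic cell marker sums are given above, and their part in the level of Rgs10 was not tested.

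Rgs14 (NCBI gene 51791, chromosome 13 from 55369732 to 55384687) encodes a scaffold that joins the RGS domain to Ras-binding and GoLoco regions. It was at 66.4 and 29.4 CPM on the high-fiber diet, against 48.1 and 36.7 CPM on the control diet. The high-fiber libraries held both the highest and the lowest value. Between diets it differed by 0.19 ± 0.44 (SE) on the log2 scale, with an interval of -0.85 to 1.24 (adjusted p = 0.948, edgeR), and it was -0.51 without high-fiber library 1. The third R12 gene, Rgs12, a large scaffold of the same subfamily, showed a like spread. It was at 48.3 and 23.3 CPM on the high-fiber diet, against 25.0 and 31.4 CPM on the control diet (log2 fold change 0.39 ± 0.44, SE).

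Rgs19 (NCBI gene 56470, chromosome 2 from 181688419 to 181694537) encodes GAIP, an RZ protein found through its binding to a Gi class alpha subunit, and it was the only RZ gene detected, with Rgs17 and Rgs20 at 0 counts. It was at 129 and 134 CPM in the high-fiber libraries and 107 and 148 CPM in the control libraries. The high-fiber values lay inside the control range. The log2 fold change was 0.047 ± 0.25 (SE), with an interval of -0.56 to 0.66, which spans a fold of 0.678 to 1.57 (adjusted p = 0.978, edgeR). Its sign turned without control library 1 (-0.17).

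R7 genes were sparse. Rgs9 was at 5.54 and 0.834 CPM on the high-fiber diet, against 1.99 and 1.52 CPM on the control diet, and Rgs11 at 7.97 and 0 CPM on the high-fiber diet, against 5.17 and 2.62 CPM on the control diet. Values of both scattered most between the high-fiber libraries. Rgs7 was at 0 counts. Rgs6 had 9 and 11 counts in the high-fiber libraries and 0 and 0 counts in the control libraries, and it did not enter the test. Gnb5, which R7 proteins need to be stable, was at 7.59 and 22.9 CPM on the high-fiber diet, against 3.84 and 17.6 CPM on the control diet. It was higher in the library numbered 2 in both diets.

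By profile over the 4 libraries, the genes most like Rgs2 among 6111 tested genes with a mean of 20 CPM or more were Oxr1 (distance 0.0391), Ctdspl2 (0.0435) and Mecr (0.0512). Those most like Rgs18 were Prr13 (0.0635), Thap7 (0.0669) and Med8 (0.0729). The measure is the Euclidean distance between centred log2(CPM + 1) profiles, whose median was 0.641 from Rgs2 and 1.02 from Rgs18. With 4 libraries such neighbours are a description.

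Among the G alpha subunits on which RGS proteins act, the Gi class outweighed the Gq class. The 5 Gi class genes summed to 329 and 277 RPKM in the high-fiber libraries and 286 and 266 RPKM in the control libraries. The 4 Gq class genes summed to 44.6 and 51.2 RPKM on the high-fiber diet and 38.2 and 39.6 RPKM on the control diet. Gnai3 (173 RPKM over all libraries) and Gnai2 (116 RPKM) made up nearly all of the Gi class, and Gna15 (36.5 RPKM), a Gq class subunit of blood cells, most of the Gq class. Gnas, the Gs subunit that raises cyclic AMP, averaged 242 ± 30.96 RPKM on the high-fiber diet and 138.5 ± 34.9 RPKM on the control diet (SD, n = 2 each). Gnai3 averaged 176 ± 12.1 and 170 ± 11.6 RPKM. Lengths join the exons of all RefSeq-paired transcripts of a gene, so the RPKM of Gnas cannot be set firmly against that of Gnai3. By CPM Gnas averaged 2291 and 1308 on the high-fiber and control diets, and Gnai3 575 and 554.

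Of 12 alpha subunits tested, 0 passed edgeR's test over all genes (smallest adjusted p = 0.456), where 0.0338% of all tested genes passed. By DESeq2 0 of the 12 passed, against 1.91% of the genes it adjusted. By edgeR 2 had an unadjusted p below 0.05, where 8.8% of all tested genes passed. The median log2 fold change of the 12 was 0.30. Gnas was at 2084 and 2498 CPM on the high-fiber diet, against 1541 and 1075 CPM on the control diet. Both high-fiber libraries were higher (log2 fold change 0.81 ± 0.26, SE), but the adjusted p was 0.456. Its locus holds overlapping and antisense transcripts, so its count and its level per length are uncertain. Gna12 had 36 and 38 counts in the high-fiber libraries and 0 and 4 counts in the control libraries, too few for a stable fold. Gnai3 was at a log2 fold change of 0.053 ± 0.20 (SE), and Gna13, a G12 class subunit, at 0.070 ± 0.27 (SE).

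Of 10 beta and gamma subunits tested, 0 passed edgeR's test over all genes, where 0.0338% of all tested genes passed. Of the 10, 3 had a positive value with an unadjusted p below 0.05, as had 4.7% of all tested genes. By DESeq2 2 rose, Gnb1 and Gng2, where 1.28% of all genes rose. Gnb1, a widely used beta subunit, was at 575 and 820 CPM on the high-fiber diet, against 272 and 185 CPM on the control diet. The groups lay well apart (log2 fold change 1.61 ± 0.29, SE; edgeR adjusted p = 0.358, DESeq2 adjusted p = 5.0e-05). Gng2, a gamma subunit that pairs with it, was at 121 and 155 CPM on the high-fiber diet, against 53.0 and 64.6 CPM on the control diet (1.23 ± 0.27, SE; edgeR adjusted p = 0.447, DESeq2 adjusted p = 0.00786). Gng10 followed at a log2 fold change of 0.70 ± 0.25 (SE), and Gnb2 was at -0.13 ± 0.34 (SE). The list median was 0.55.

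**Figure D5:**
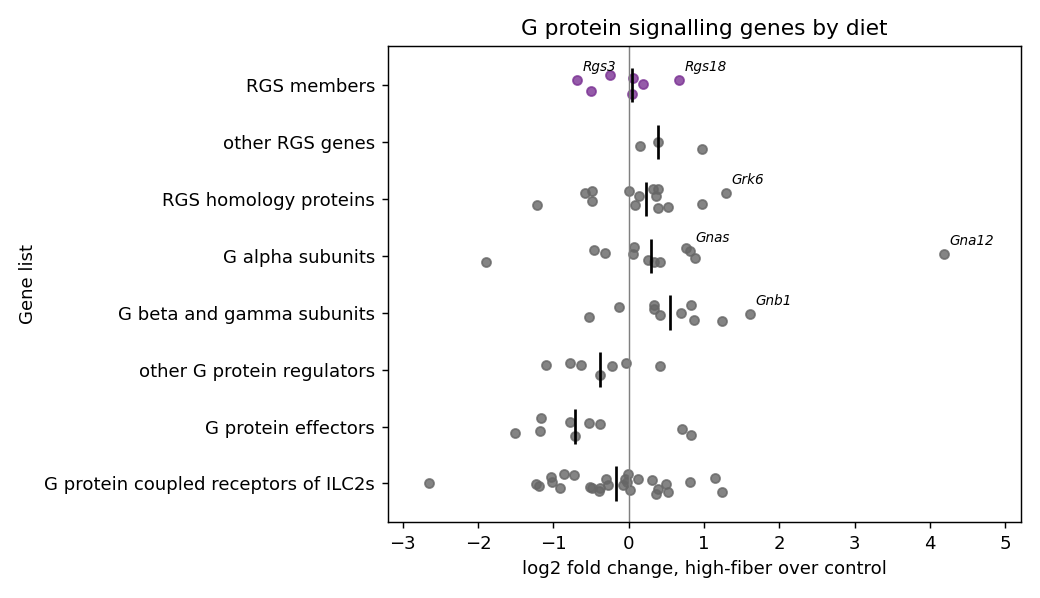
Log2 fold changes, high-fiber over control, of tested genes in each list of G protein signalling genes, with 1 point per gene and a black tick at the list median. RGS members spread from -0.68 to 0.67, and Gnb1 (1.61) lies at the upper end of the beta and gamma subunits. Gna12 (4.18) is the far point, with 0 and 4 counts in the control libraries.

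Proteins that share the RGS fold or end receptor signalling in other ways did not pass the test either. Of 14 genes with an RGS homology region, 0 passed with edgeR, against 0.0338% of all tested genes. By DESeq2 0 of the 14 passed, against 1.91% of the genes it adjusted. By edgeR 1 had an unadjusted p below 0.05, where 8.8% of all tested genes passed. The median log2 fold change of the 14 was 0.22. Grk6, a kinase that marks active receptors for arrestin, had the smallest p, at 155 and 108 CPM on the high-fiber diet, against 70.1 and 36.6 CPM on the control diet (1.29 ± 0.37, SE; edgeR adjusted p = 0.447). Snx14 (-0.48 ± 0.25, SE) and Arhgef1 (0.079 ± 0.59, SE) were the other abundant ones. Of 7 other regulators 0 passed with either tool, beside the same 0.0338% by edgeR and 1.91% by DESeq2. By edgeR 0 of the 7 had an unadjusted p below 0.05, where 8.8% of all tested genes passed. Values of 6 of the 7 were negative and their median was -0.38, where 6059 of all 11841 tested genes had negative values. Arrb2, which encodes an arrestin, was at 24.7 and 32.2 CPM on the high-fiber diet, against 45.2 and 51.9 CPM on the control diet (-0.78 ± 0.33, SE; adjusted p = 0.571, edgeR). Gpsm3 was at -0.38 ± 0.22 (SE) and Ric8a, a chaperone of alpha subunits, at -0.031 ± 0.31 (SE).

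Of 9 tested effectors 1 had an unadjusted p below 0.05 by edgeR, where 8.8% of all tested genes passed. With either tool 0 of the 9 effectors passed, beside 0.0338% of all tested genes by edgeR and 1.91% of the genes DESeq2 adjusted. The median of the 9 was -0.72. The 3 most abundant were Pik3r5 (-1.17 ± 0.47, SE), a subunit of the kinase that beta-gamma pairs activate, Plcb4 (0.83 ± 0.52, SE), a phospholipase driven by Gq, and the adenylyl cyclase gene Adcy7 (-0.39 ± 0.31, SE). Of 28 tested receptors 3 had an unadjusted p below 0.05 by edgeR, beside the same 8.8% of all tested genes. With either tool 0 of the 28 receptors passed, beside the same 0.0338% by edgeR and 1.91% by DESeq2. They had 10 positive and 18 negative values and a median of -0.18, where 6059 of all 11841 tested genes had negative values. The chemokine receptor genes Cxcr6 (0.39 ± 0.22, SE) and Ccr8 (-0.27 ± 0.22, SE) and the oxysterol receptor gene Gpr183 (-0.39 ± 0.20, SE) were the most abundant by CPM. Ptger4, a prostaglandin E2 receptor, was at 133 and 99.8 CPM on the high-fiber diet, against 228 and 212 CPM on the control diet (-0.92 ± 0.24, SE; adjusted p = 0.447, edgeR). Ccr2 was at 94.2 and 118 CPM on the high-fiber diet, against 176 and 257 CPM on the control diet (-1.03 ± 0.28, SE; adjusted p = 0.447, edgeR).

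Rgs1 and Rgs2 are known as genes that activated lymphocytes induce, so their values are set beside those of 13 immediate early genes. Values of 12 were negative, as were 6059 of all 11841 tested genes, and the list median was -0.83 on the log2 scale. By edgeR 0 passed over all genes, where 0.0338% of all tested genes passed. Of the 13, 8 had a negative value with an unadjusted p below 0.05, as had 4.1% of all tested genes. By DESeq2 7 fell, where 0.635% of all genes fell. Over the 13, edgeR's log2 fold changes ran from -2.18 for Egr2 to 0.20 for Egr3, with Fosb at -0.20 ± 0.30 (SE) and Dusp1 at -0.50 ± 0.28 (SE). Egr1 was at -2.10 ± 0.27 (SE) and Fos at -1.16 ± 0.24 (SE), against -0.24 ± 0.22 (SE) for Rgs2 and 0.062 ± 0.22 (SE) for Rgs1. The difference between them and the immediate early genes was not tested.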

How the data were processed

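RNA of ILC2s sorted from colon was made into libraries with a SMARTer ultra-low-input kit, per the labels' protocols. The deposited table holds raw read counts per NCBI gene and library. The submitters' processing notes list CASAVA 1.8.2, STAR 2.3.0 and mm10. The counting program is not given in the sources used here. Gene numbers were matched to RefSeq's GRCm38.p6 annotation (the assembly of mm10), which named 25275 of 27179. The 1904 without a symbol held 0.212% to 0.248% of a library's counts. Exon lengths came from GENCODE M21.

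In R 4.3.3 with edgeR 4.0.16, filterByExpr left 11841 genes, scaled by TMM. The model held diet only, with glmQLFit (legacy=FALSE, robust off), glmQLFTest and Benjamini-Hochberg adjustment at 0.05. Counts varied between mice of a diet with a common coefficient of 0.607, and 2 residual degrees of freedom remained. The test adds degrees of freedom from variance shared across genes. Each 95% interval uses the total recovered from that gene's p and F, so it is narrower than with 2. Each standard error is the fold change divided by the root of F. The fit was tested on simulated data. DESeq2 1.42.0 and limma 3.58.1 were alternatives. A mouse is the replicate, with 2 per diet. The diets share replicate numbers, but no label ties them to a shared cage, day or batch.

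Members and lists were chosen with earlier results of these data known. All 8 members are named, other RGS genes if their mean reached 1 CPM, and in each G protein list the 3 most abundant and the 2 of smallest p. Profile neighbours were sought for the member with the highest level per kilobase and the member with the smallest p. Other list genes given were chosen after their values were seen. No protein sequences were used here.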

Additional observations from a re-analysis of the deposited data

How the results depend on the processing

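The 7 tested RGS genes were refitted under 15 alternatives each, and 101 of 105 values kept their sign, none passing (smallest adjusted p = 0.329). The count of RGS genes past the threshold was 0 throughout. The 4 reversals came from leaving out 1 library: Rgs1 (from -0.085 to 0.22, with -0.029 without control library 2), Rgs14 (-0.51 to 0.63) and Rgs19 (-0.17 to 0.29). Without 1 library Rgs2 ranged from -0.39 to -0.086, Rgs3 from -1.20 to -0.37, Rgs10 from -0.74 to -0.25 and Rgs18 from 0.16 to 1.08. Of all genes, 4 were called higher and 0 lower. DESeq2 called 238 (159 higher, 79 lower), including 2 in the G protein lists, where edgeR called 0. Keeping genes that reached 5 CPM in 2 or more libraries gave 9 (8 higher, 1 lower). No filter, limma-voom, the older fit (legacy=TRUE) and the replicate block each gave 0. Without 1 library the count was 0 to 1. The cause was not tested. The same-numbered libraries' deviations correlated at 0.0809. With 2 libraries per diet this value cannot decide whether same-numbered libraries share a batch. The numbers were not taken to pair mice because no label does so. With 2 mice per diet, intervals for the sparser genes remained wide.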
